A study of Mus musculus with 12 samples.

Results

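The genes described here are 42 mouse genes of mitosis and chromosome segregation, taken as a fixed list of symbols from the expression table of wild-type and HMGN1-OE myeloid progenitors. All 42 symbols were listed among the 23309 genes of the table, and all 42 passed the filter on low values (1 FPKM or more in 2 or more of the 12 libraries) that left 11516 genes for testing. They were sorted by their known roles into 7 groups: 7 genes of mitotic entry (cyclins, kinases and the phosphatase Cdc25c), 7 of the spindle checkpoint and anaphase, 7 of the centromere and kinetochore, 3 of the chromosomal passenger complex, 9 spindle motors and assembly factors, 7 of the central spindle and cytokinesis, and 2 of chromosome structure.

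The libraries came from c-Kit positive bone marrow progenitors of C57BL/6 mice that were immortalized with a retrovirus carrying HoxB8 fused to the estrogen receptor (ER-HoxB8). Both genotypes carried the ER-HoxB8 fusion and grew in IL-3, and the fusion is active only while estradiol (E2) is in the medium. HMGN1-OE cells came from mice with a human HMGN1 transgene, which encodes a nucleosome-binding protein, and wild-type cells from mice without it. Each genotype was sampled with E2 present (0 h) and at 36 h and 96 h after E2 was withdrawn, with 2 libraries in each of the 6 groups, named a and b here without any pairing between groups. The study calls the libraries of a group biological duplicates. Whether they came from separate mice or separate cultures is not given in the sources used here. The p-values rest on the spread between libraries of a group, pooled over the 6 groups and over genes of like expression level. Values are FPKM that the authors scaled to ERCC synthetic RNAs added to RNA from a fixed number of cells, so they are levels per cell rather than shares of a library. In such bulk samples, fewer dividing cells and less mitotic RNA in each cell cannot be told apart.

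Mitotic genes are transcribed late in the cell cycle, in G2 and M, and are low in cells that rest or have left the cycle. Cyclin B with the kinase Cdk1 starts mitosis, kinetochores tie chromosomes to spindle microtubules, and the spindle checkpoint holds back the anaphase-promoting complex until every chromosome is attached. In the bone marrow, early neutrophil precursors divide, and neutrophils stop dividing as they mature. Most of these genes are repressed in resting cells by the DREAM complex and driven in cycling cells by Mybl2 and Foxm1 through a short promoter element, the cell cycle homology region (CHR).

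Promoter sequences were taken from RefSeq (GRCm38.p6), which held an entry for 34 of the 42 genes, from 250 bases before the start of the gene to 50 bases after it. The CHR was searched as TTTGAA or TTCGAA on both strands, and the other promoter element of this class, the CCAAT box, as CCAAT on both strands. The letters of both elements can share 1 base. Within 50 bases on either side of the start, 24 of the 34 genes (70.59%) held a CHR match, against 372 of the 8530 tested genes that had an entry (4.36%). Over the whole window the shares were 76.47% of the 34 genes and 16.3% of the tested genes. A CCAAT box was present over the whole window in 25 of the 34 genes (73.53%) and in 43.6% of the tested genes. Of 98 other mitotic genes, 77 had an entry and 24 of these (31.17%) held a CHR match near the start. Among 39 DNA replication genes, which are transcribed earlier in the cycle, 30 had an entry and 2 of these (6.67%) held such a match. A CCAAT box was present over the whole window in 58.44% of the 77 genes and 63.33% of the 30. A match describes letters in the sequence and does not show that a factor binds there. The following 24-base stretches show a match near the start in genes of 6 of the 7 role groups, read 5′ to 3′ on the strand of the gene, with the CHR letters in capitals (TTCAAA is TTTGAA read on the other strand).
Ccnb2 (chr9:70421536-70421559, minus strand): ggcgcggtaTTTGAAtcgcggacc
Plk1 (chr7:122159456-122159479, plus strand): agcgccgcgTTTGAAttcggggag
Cdc20 (chr4:118437347-118437370, minus strand): cagttgggtTTTGAAggagccaat
Ube2c (chr2:164769891-164769914, plus strand): gggttgcaaTTCAAAcgcgggcgg
Cenpa (chr5:30666893-30666916, plus strand): gggtgatttTTTGAActgctggcg
Spc25 (chr2:69206175-69206198, minus strand): ggtggagagTTTGAAattgaaaga
Kif11 (chr19:37376354-37376377, plus strand): tctccatttTTCAAAattgaggcg
Prc1 (chr7:80294437-80294460, plus strand): ctggctcggTTTGAAttccgcggg
Racgap1 (chr15:99651637-99651660, minus strand): gtgcgtgatTTTGAAccggatctg
Top2a (chr11:99024198-99024221, minus strand): agataaaggTTCAAAtgaaactag

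The 3 members of the chromosomal passenger complex are not in this set, since Aurkb and Incenp had no entry and Birc5 held no CHR match near its start. Ccnb2 and Top2a held letters of both elements upstream of the start. The Ccnb2 match printed above begins at base 5 after the start and lies outside the stretch below, where the CHR match begins 167 bases before the start. In the 250 bases before each start, given 5′ to 3′ on the strand of the gene with CHR and CCAAT letters of either strand in capitals, Ccnb2 held 1 CHR match and 3 CCAAT boxes and Top2a held 4 CHR matches and 6 CCAAT boxes.
Ccnb2 (chr9:70421555-70421804, minus strand): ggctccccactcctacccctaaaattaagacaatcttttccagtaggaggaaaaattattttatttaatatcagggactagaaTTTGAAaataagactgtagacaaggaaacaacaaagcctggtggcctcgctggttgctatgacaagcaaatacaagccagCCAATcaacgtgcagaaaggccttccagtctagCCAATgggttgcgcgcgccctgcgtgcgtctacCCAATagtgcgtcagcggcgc
Top2a (chr11:99024190-99024439, minus strand): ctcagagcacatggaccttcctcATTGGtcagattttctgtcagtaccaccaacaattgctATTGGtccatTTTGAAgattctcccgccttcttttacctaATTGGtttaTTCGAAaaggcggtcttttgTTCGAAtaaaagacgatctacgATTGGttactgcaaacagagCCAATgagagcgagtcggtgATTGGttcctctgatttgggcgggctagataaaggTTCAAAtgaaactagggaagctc

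Mouse Hmgn1, whose values do not cover the human transgene separately, was 85.7 and 141 FPKM in the wild-type libraries at 0 h and 201 and 97.6 in the HMGN1-OE libraries. It was 141 and 183 against 134 and 188 at 36 h, and 11.1 and 4.71 against 10.1 and 20.7 at 96 h. The genotypes overlapped at each time, so these values do not check the genotype labels. Summed FPKM per library ran from 228955 to 1442573, and the median of the tested genes on the log2(FPKM + 1) scale from 2.02 to 4.97, with the 4 libraries at 96 h lowest. The wild-type library b at 96 h stood apart. It had the lowest sum and the lowest median, and each of the 42 genes was lower in it than in wild-type library a of the same time, with a median ratio of 3.15 (2.76 to 3.48). Markers of myeloid progenitors (Kit, Cd34, Mpo, Elane, Prtn3 and Ctsg) summed to between 5373 and 21697 FPKM at 0 and 36 h and to between 118 and 2302 at 96 h. Of 10 neutrophil markers, Ly6g was not analysed here and S100a9 was listed at 0.051 FPKM in wild-type library a at 96 h but at 26546 to 73461 in the other 3 libraries of that time. The remaining 8 summed to between 150.4 and 1709 at 0 and 36 h and to between 39055 and 98087 at 96 h. Macrophage markers summed to between 34.7 and 137 FPKM at 0 and 36 h and to between 34.2 and 49.7 at 96 h, and mast cell and basophil markers to between 378 and 2601 and then to between 98.1 and 419. Stromal and endothelial markers summed to between 84.2 and 269.6 and then, without overlap, to between 11.6 and 25.2, nearly all of it from Pecam1, an adhesion protein also made by blood cells. Mertk, Col3a1 and Cdh5 were under 1 FPKM in all 12 libraries. Among these lists, the sums of the progenitor and of the stromal and endothelial markers were lower and those of the neutrophil markers higher in all 4 libraries at 96 h, and their part in the changes from 36 to 96 h was not tested.

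The mitotic genes were well expressed before and after E2 was withdrawn. Of the 42 genes, 40 to 42 were above the library's own median of all tested genes in each library, and their median level was 1.57 to 2.19 log2 units above that median. Over the 12 libraries the highest levels per length were those of Ube2c, the ubiquitin-conjugating enzyme of the anaphase-promoting complex, Top2a, the topoisomerase that untangles chromosomes, and Birc5 (survivin). Their mean log2(FPKM + 1) was 7.40, 7.36 and 7.24. The lowest were Espl1 (separase, 3.71), Cdc25c, the phosphatase that activates Cdk1 (3.96), and the kinetochore protein Cenpf (4.19). Together the 42 genes made up between 0.249% and 0.400% of a library's summed FPKM, with both of these extremes in the wild-type libraries at 96 h.

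**Figure D1:**
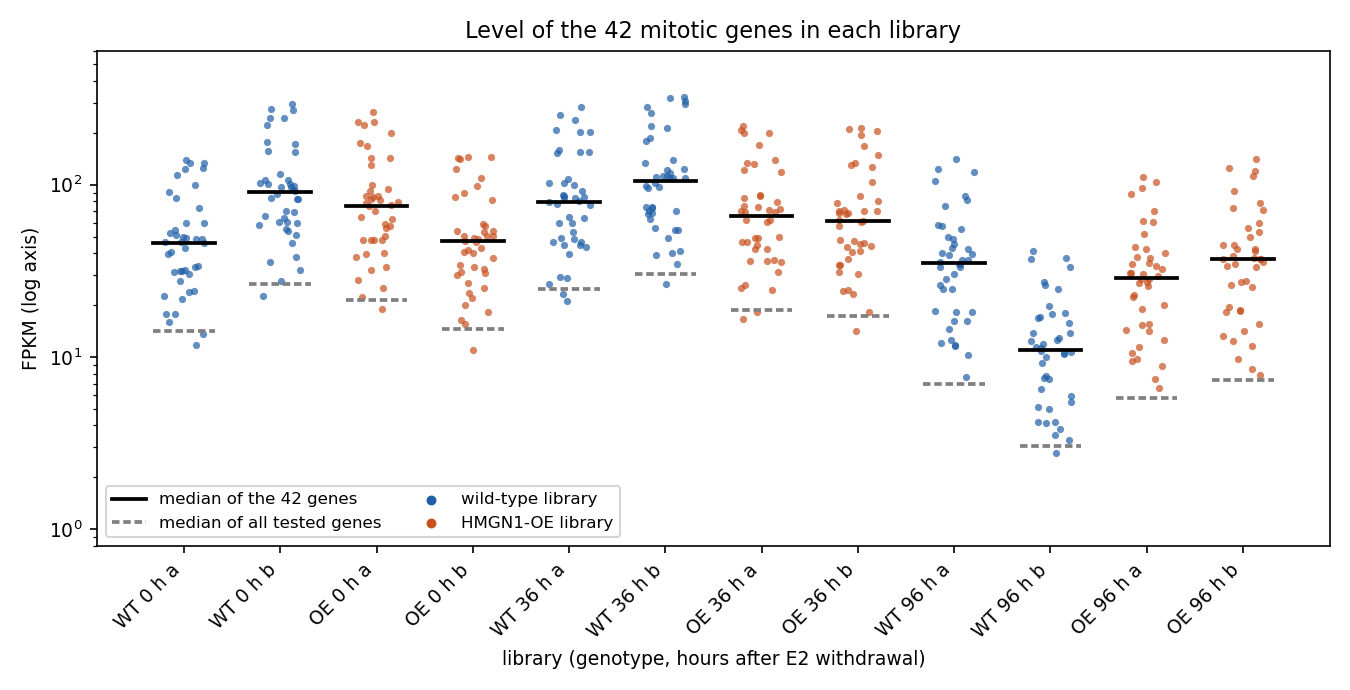
FPKM (log axis) of each of the 42 mitotic genes (points) in each of the 12 libraries, wild-type in blue and HMGN1-OE (OE) in orange, with the median of the 42 genes (black bar) and of all 11516 tested genes (dashed grey bar). The median of the 42 genes lay between 46.1 and 106 FPKM in the 8 libraries at 0 and 36 h and between 11 and 36.9 in the 4 libraries at 96 h, and the grey bar fell with it.

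At 0 h, with E2 present, no difference between the genotypes was detected in any of the 42 genes. By limma, 0 of the 42 were called at an adjusted p-value under 0.05, against 1.36% of all tested genes, and 0 had an unadjusted p under 0.05. The log2 differences ran from -0.30 (Cenpe) to 0.06 (Ccnb1) with standard errors of 0.49 to 0.58, and their median of -0.11 lay beside -0.12 over all tested genes. The libraries of both genotypes overlapped for all 42 genes, whereas 7.93% of tested genes did not overlap in either direction. The spread inside each genotype was larger than the difference. All 42 genes were higher in wild-type library b than in library a, by a median ratio of 1.99 (1.71 to 2.41), and all 42 were higher in HMGN1-OE library a than in library b, by 1.59 (1.31 to 1.84). The median difference was -0.61 without wild-type library a, 0.36 without wild-type library b, -0.46 without HMGN1-OE library a and 0.21 without HMGN1-OE library b.

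From 0 to 36 h no change of a mitotic gene passed the test in either genotype. In wild-type cells 0 of 42 were called (0.617% of tested genes were called in either direction), the lowest adjusted p was 0.589, and the median log2 difference was 0.51, near the 0.47 of all tested genes. The values ran from 0.15 for Kif23, a motor of the central spindle, to 0.64 for Mki67, the Ki-67 protein of the chromosome surface. In HMGN1-OE cells 0 of 42 were called (1.8% of tested genes), the median was 0.13 against 0.06 over all tested genes, and the values ran from -0.35 for Nek2, a kinase of centrosome separation, to 0.31 for Aurka, a kinase of the spindle poles, with 37 of 42 above 0. The difference of these changes between the genotypes had a median of -0.37, beside -0.41 over all tested genes. None of the 42 was called for it (0.504% of tested genes), with a lowest adjusted p of 0.873, and the unadjusted p was under 0.05 in 0 of 42 in each of these 3 comparisons. These medians turned on single libraries at 0 h. The wild-type median was 0.0022 without library a and 1.01 without library b, that of HMGN1-OE cells was 0.48 without library a and -0.21 without library b, and the difference between the genotypes was 0.079 and -0.86 without wild-type library a or b and -0.026 and -0.70 without HMGN1-OE library a or b. At 36 h, leaving out wild-type library b brought the difference to -0.19 and the wild-type median to 0.34, and leaving out wild-type library a gave a difference of -0.57.

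At 36 h the mean of each of the 42 genes was lower in HMGN1-OE cells, as was that of most genes, and none passed the test. The log2 differences ran from -0.67 for Pttg1 (securin, which holds separase inactive) to -0.28 for Ccnb1, with a median of -0.49 against -0.54 over all tested genes. The libraries of both genotypes did not overlap for 40 of the 42, Ccnb1 and Kif23 being the exceptions, and 84.4% of all tested genes likewise lay lower without overlap. By limma 0 of 42 were called (1.26% of tested genes in either direction), with a lowest adjusted p of 0.496 and no unadjusted p under 0.05. The median was -0.30 without wild-type library b. When library medians were subtracted, the median difference of the 42 was 0.09, so that its sign turned.

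Between 36 and 96 h the means of all 42 mitotic genes went down in both genotypes, and limma called 42 of these falls in wild-type cells and 14 in HMGN1-OE cells. Both libraries at 96 h were below both at 36 h for all 42 genes in wild-type cells (90.4% of tested genes) and for 41 of 42 in HMGN1-OE cells (87.6%), Mki67 being the exception. The 42 called lower in wild-type cells stood against 86.3% of all tested genes, with a median log2 change of -2.11 beside -2.21 over all tested genes. In HMGN1-OE cells 14 of 42 were called lower, against 64.9% of all tested genes, and the median was -1.01 beside -1.33. How near these medians lay depended on the settings. With a pseudocount of 0.1 they were -2.21 beside -2.60 in wild-type cells and -1.06 beside -1.57 in HMGN1-OE cells. Among genes with a mean of at least 5 FPKM they were -2.11 beside -2.51 and -1.01 beside -1.52. Most of the transcriptome fell per cell over the same interval. When the groups compared were fitted alone, 38 of 42 were called in HMGN1-OE cells beside 83% of tested genes, so whether the called share of the mitotic genes lay below that of all genes turned on the fit. With no moderation 1 of 42 was called there (55.1% of tested genes), and with no filter on low values 1 of 42 (25.5% of 23309 genes). Without wild-type library b at 96 h the median in wild-type cells was -1.38 and 31 of 42 were called (76.6% of tested genes). The count in HMGN1-OE cells turned on single libraries. It was 0 without HMGN1-OE library a at 96 h (30.8% of tested genes) and 8 without library b (53% of tested genes). It was 1 without HMGN1-OE library a or b at 36 h (39.7% and 45.6%), and 25 without wild-type library a or b at 96 h (70.1% in each case). The 14 genes were Ccnb1, Nek2, Cdc25c and Aurka, the checkpoint genes Bub1b, Ttk, Cdc20 and Pttg1, the kinetochore genes Spc24 and Cenpf, Aurkb, Hmmr, Kif20b and Ect2. Across the 42 genes the change in wild-type cells and the change in HMGN1-OE cells, which share no library, had a Pearson r of 0.959 and a Spearman rho of 0.939. Over all tested genes these were 0.917 and 0.941. The points are genes measured in the same 8 libraries and are not independent.

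**Figure D2:**
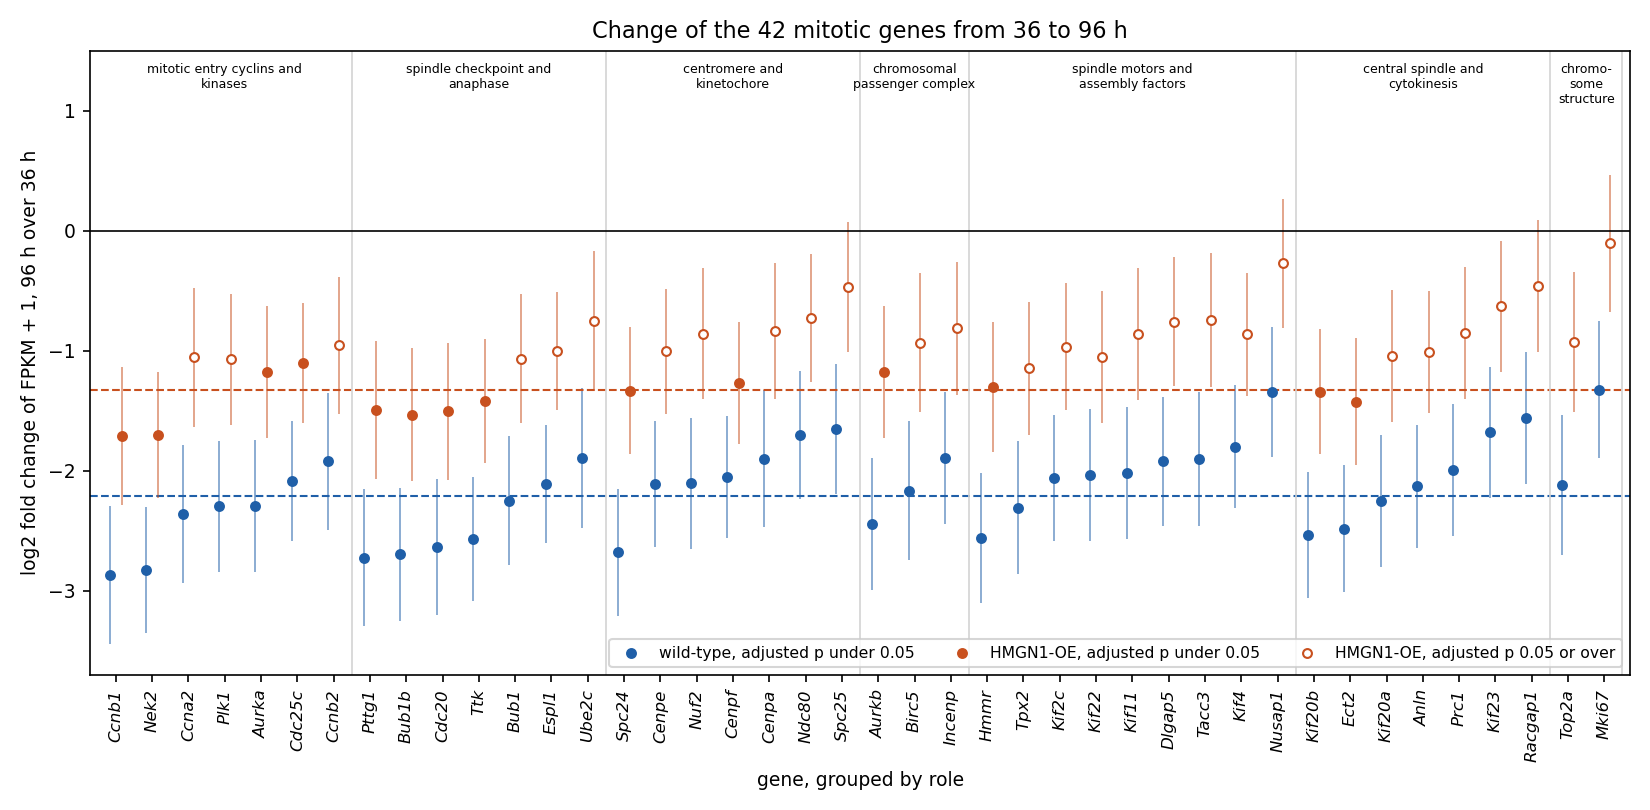
Log2 fold change of FPKM + 1 from 36 to 96 h (y axis) of the 42 genes, grouped by role (x axis), in wild-type (blue) and HMGN1-OE cells (orange), with limma standard errors as bars, filled points for genes called at an adjusted p under 0.05, and dashed lines for the medians of all tested genes, -2.21 and -1.33. Ccnb1 fell most in both genotypes, to -2.87 and -1.71, and Mki67 least in both, to -1.33 in wild-type cells and an uncalled -0.10 in HMGN1-OE cells.

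Among the genes of mitotic entry, all 7 were called lower in wild-type cells and 4 of 7 in HMGN1-OE cells, and in both genotypes all 7 were lower without overlap. Ccnb1, the B-type cyclin that with Cdk1 starts mitosis, was 124 and 244 FPKM in the wild-type libraries a and b at 0 h, 203 and 296 at 36 h, and 58.2 and 18.1 at 96 h. In the HMGN1-OE libraries it was 231 and 142, 199 and 204, and 51.7 and 71.2 at the same times. Every library at 96 h was below every earlier library in both genotypes, and the fall from 36 h was 7.31-fold in wild-type cells (log2 change -2.87 ± 0.58 SE, limma adjusted p = 1.46e-06) and 3.28-fold in HMGN1-OE cells (-1.71 ± 0.58, adjusted p = 0.00615). Ccna2, the A-type cyclin of S and G2, was 124 and 243, 207 and 284, and 86.2 and 24.8 FPKM in wild-type libraries, and 199 and 123, 171 and 168, and 70.8 and 92.3 in HMGN1-OE libraries. Its libraries at 96 h were likewise the lowest, with a change of -2.36 in wild-type cells (adjusted p = 7.04e-05) and an uncalled -1.06 in HMGN1-OE cells (adjusted p = 0.0897). Ccnb2, the other B-type cyclin, had the smallest called fall of the group in wild-type cells, 3.79-fold (-1.92 ± 0.57), and Cdc25c the smallest called one in HMGN1-OE cells, 2.15-fold (-1.11 ± 0.50, adjusted p = 0.0406). Plk1, the polo kinase, changed by -2.30 in wild-type cells, and was -1.07 and not called in HMGN1-OE cells.

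The genes of the spindle checkpoint and anaphase had the deepest median of the 7 role groups in both genotypes, -2.57 and -1.42, although this order was not tested. All 7 were called lower in wild-type cells, and Bub1b, Ttk, Cdc20 and Pttg1 in HMGN1-OE cells. Ube2c was 139.6 and 272 FPKM in the wild-type libraries at 0 h, 254 and 324 at 36 h, and 141 and 41.5 at 96 h, against 265 and 144, 209 and 214, and 111 and 140.2 in HMGN1-OE libraries. It had the smallest fall of the group in wild-type cells, 3.71-fold, and in wild-type library a at 96 h it was level with library a at 0 h. Pttg1 was 115 and 224, 202 and 259, and 57.3 and 19.7 FPKM in wild-type libraries, and 174 and 109, 139 and 149, and 42.5 and 59.7 in HMGN1-OE libraries. All 4 of its libraries at 96 h were below all 8 earlier ones, and its fall of 6.61-fold (-2.72 ± 0.57, adjusted p = 3.95e-06) was the largest of the group in wild-type cells. In HMGN1-OE cells Bub1b, a checkpoint kinase, fell most, by 2.89-fold (-1.53 ± 0.55, adjusted p = 0.0105), and the checkpoint kinase Ttk least among those called, by 2.67-fold (-1.42 ± 0.52).

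All 7 centromere and kinetochore genes were called lower in wild-type cells, and Spc24 and Cenpf in HMGN1-OE cells. Cenpa, the histone H3 variant that marks the centromere, was 83.8 and 156, 154 and 186, and 75.5 and 26.1 FPKM in wild-type libraries at 0, 36 and 96 h, and 143 and 84.7, 122 and 127, and 61.1 and 78.8 in HMGN1-OE libraries. Nuf2 was 40.6 and 84.2, 76.3 and 98.9, and 35.5 and 10.4 FPKM in wild-type libraries, and 62.8 and 39.9, 62.1 and 61.5, and 30.6 and 36.9 in HMGN1-OE libraries. For both genes the libraries at 96 h were the lowest of their genotype, and the change from 36 h was -1.90 and -2.11 in wild-type cells and, uncalled, -0.84 and -0.86 in HMGN1-OE cells. Ndc80, Nuf2, Spc24 and Spc25 together form the Ndc80 complex, which holds microtubules at the kinetochore, but their changes were unequal. Spc24 fell 6.41-fold in wild-type cells (-2.68 ± 0.53, adjusted p = 1.05e-06) and 2.52-fold in HMGN1-OE cells (-1.33 ± 0.53, adjusted p = 0.0200), the largest falls of the group in each genotype, while Spc25 had the smallest, 3.15-fold in wild-type cells (-1.65 ± 0.54) and an uncalled -0.47 in HMGN1-OE cells. The ratio of Spc24 to Spc25 inside each library was 0.759 to 0.940 in the 8 libraries at 0 and 36 h and 0.414 to 0.496 in the 4 libraries at 96 h. Cenpf had the smallest called fall in HMGN1-OE cells, 2.42-fold (-1.27 ± 0.51).

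In the chromosomal passenger complex, which corrects faulty attachments of chromosomes, the kinase Aurkb, its scaffold Incenp and Birc5 all fell in wild-type cells and Aurkb alone of the 3 was called in HMGN1-OE cells. Birc5 was 133 and 277, 239 and 306, and 106 and 33.2 FPKM in wild-type libraries, and 221 and 143, 199.96 and 196, and 88.9 and 119.8 in HMGN1-OE libraries. Incenp was 49.98 and 92.2, 92.2 and 113, and 45 and 15.7 FPKM in wild-type libraries, and 85.7 and 48.7, 74.2 and 70.8, and 37.3 and 44.5 in HMGN1-OE libraries. Both were lowest at 96 h in each genotype, but Incenp in wild-type library a at 96 h came close to library a at 0 h. Aurkb had the largest fall in wild-type cells, 5.44-fold (-2.44 ± 0.55), and Incenp the smallest, 3.72-fold (-1.89 ± 0.55). In HMGN1-OE cells Aurkb fell 2.27-fold (-1.18 ± 0.55, adjusted p = 0.0474).

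All 9 spindle motors and assembly factors fell in wild-type cells, and Hmmr alone of them was called in HMGN1-OE cells. Tacc3, which stabilizes spindle microtubules, was 59.9 and 115, 108 and 134, and 55.3 and 17.7 FPKM in wild-type libraries, and 94.5 and 58.9, 84.0 and 78.8, and 43.6 and 52.9 in HMGN1-OE libraries. Tpx2, the activator of Aurka on the spindle, was 52.8 and 107, 102 and 124, and 39.6 and 11.9 FPKM in wild-type libraries, and 85.8 and 54.1, 86.1 and 80.6, and 32.3 and 42.6 in HMGN1-OE libraries. Both had their lowest values at 96 h in each genotype. The changes from 36 h were -1.90 and -2.31 in wild-type cells, and -0.75 and -1.15, neither called, in HMGN1-OE cells. Hmmr, a spindle microtubule-binding protein, fell most, 5.91-fold in wild-type cells (-2.56 ± 0.54) and 2.47-fold in HMGN1-OE cells (-1.30 ± 0.54, adjusted p = 0.0262), and Nusap1, which bundles spindle microtubules, fell least in wild-type cells, 2.54-fold (-1.35 ± 0.54, adjusted p = 0.0151). The motors Kif11, Kif2c, Kif22 and Kif4 lay between them, from -2.06 to -1.80 in wild-type cells and, uncalled, from -1.05 to -0.86 in HMGN1-OE cells, and Dlgap5, another spindle assembly factor, was at -1.92 and an uncalled -0.76.

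All 7 genes of the central spindle and cytokinesis were called lower in wild-type cells, and Ect2 and Kif20b in HMGN1-OE cells. Prc1, which crosslinks the microtubules of the central spindle, was 46.5 and 98.1, 85.2 and 111, and 40.2 and 13.8 FPKM in wild-type libraries, and 82.1 and 48.3, 70.9 and 68.8, and 35.3 and 41.4 in HMGN1-OE libraries. Racgap1, which with Kif23 forms the centralspindlin complex, was 42.9 and 83.1, 80.1 and 96.1, and 49.8 and 16.7 FPKM in wild-type libraries, and 76.1 and 42.8, 62.5 and 61.1, and 40.1 and 49.7 in HMGN1-OE libraries. Racgap1 at 96 h therefore overlapped its own 0 h values in both genotypes, while Prc1 was lowest at 96 h. Racgap1 had the smallest fall of the group in wild-type cells, 2.96-fold (-1.56 ± 0.55, adjusted p = 0.00557), and Kif20b the largest, 5.81-fold (-2.54 ± 0.52). In HMGN1-OE cells the called genes were Ect2, the exchange factor that activates RhoA at the division plane, which fell 2.68-fold (-1.42 ± 0.53), and the kinesin Kif20b, which fell 2.53-fold (-1.34 ± 0.52). Anillin (Anln) and the motor Kif20a changed by -2.13 and -2.25 in wild-type cells and were at -1.01 and -1.04, not called, in HMGN1-OE cells. Kif23 was 48.6 and 102 FPKM in the wild-type libraries a and b at 36 h, a ratio b over a of 2.11 where the median of the 42 genes was 1.28, so its changes from and to that time rest on libraries that differ more than those of the other members.

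Top2a and Mki67 both fell in wild-type cells and neither was called in HMGN1-OE cells. Top2a was 134 and 296, 282 and 321, and 123 and 37.8 FPKM in wild-type libraries, and 232 and 146, 221 and 212, and 103 and 124 in HMGN1-OE libraries. Mki67 was 73.1 and 158, 158 and 179, and 119 and 36.9 FPKM in wild-type libraries, and 129.5 and 81.5, 119 and 104, and 95.3 and 112 in HMGN1-OE libraries. At 96 h Mki67 overlapped its earlier values in both genotypes, and in HMGN1-OE cells the libraries at 96 h lay around those at 36 h. The change of Top2a was -2.12 in wild-type cells (4.35-fold, adjusted p = 0.000404) and -0.93 in HMGN1-OE cells (adjusted p = 0.141). That of Mki67 was the smallest of all 42 genes in each genotype, -1.33 in wild-type cells (2.51-fold, adjusted p = 0.0236) and -0.10 in HMGN1-OE cells (adjusted p = 0.872).

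Since most of the transcriptome fell per cell, the mitotic genes were also compared with the median gene of their own library. After the median was subtracted from each library, 10 of 42 genes were called higher at 96 h than at 36 h in wild-type cells (38.2% of tested genes) and 2 of 42 lower (33.7%). In HMGN1-OE cells 15 were called higher (28.6% of tested genes) and 0 lower (32.3%). With quantile normalization instead, 19 were called higher and 1 lower in wild-type cells (31.9% and 38.3% of tested genes). In HMGN1-OE cells that setting gave 26 higher and 0 lower (28.7% and 36%). The 10 genes called higher with centring in wild-type cells were Cenpa, Ndc80, Spc25, Incenp, Kif4, Tacc3, Nusap1, Kif23, Racgap1 and Mki67, and all 10 were among the 15 in HMGN1-OE cells, beside Espl1, Ube2c, Kif2c, Dlgap5 and Prc1. The 2 called lower in wild-type cells were Ccnb1 (-0.55 ± 0.20 SE, adjusted p = 0.0334) and Nek2 (-0.51 ± 0.16, adjusted p = 0.0187), and these stood at -0.37 and -0.36, not called, in HMGN1-OE cells. Mki67 rose most on this scale, by 0.998 in wild-type cells (adjusted p = 0.00161) and 1.24 in HMGN1-OE cells (adjusted p = 0.000652). The median over the 42 genes was 0.22 in wild-type cells and 0.33 for HMGN1-OE. In wild-type cells it rested on 1 library: against the 36 h libraries it was 0.43 and 0.52 for library a at 96 h and -0.11 and -0.03 for library b.

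The same comparison over all libraries set the 4 libraries at 96 h against the 8 earlier ones. Relative to the library median, 9 of the 42 genes were higher in all 4 (Espl1, Ndc80, Spc25, Incenp, Kif4, Tacc3, Nusap1, Racgap1 and Mki67) and Nek2 was lower in all 4, against 33.2% and 31.5% of tested genes. Mki67 stood 2.30 to 2.63 log2 units above the library median at 0 and 36 h and 3.22 to 3.92 above it at 96 h. Nusap1 stood at 1.04 to 1.36 and then at 1.86 to 2.48, and Nek2 at 0.82 to 1.43 and then at 0.36 to 0.73. Without wild-type library b at 96 h, 30 of the 42 genes were higher in the 3 remaining libraries (35.2% of tested genes) and Nek2 remained lower (34.2%), so the count for the members turned on this library while the shares of all genes hardly moved.

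**Figure D3:**
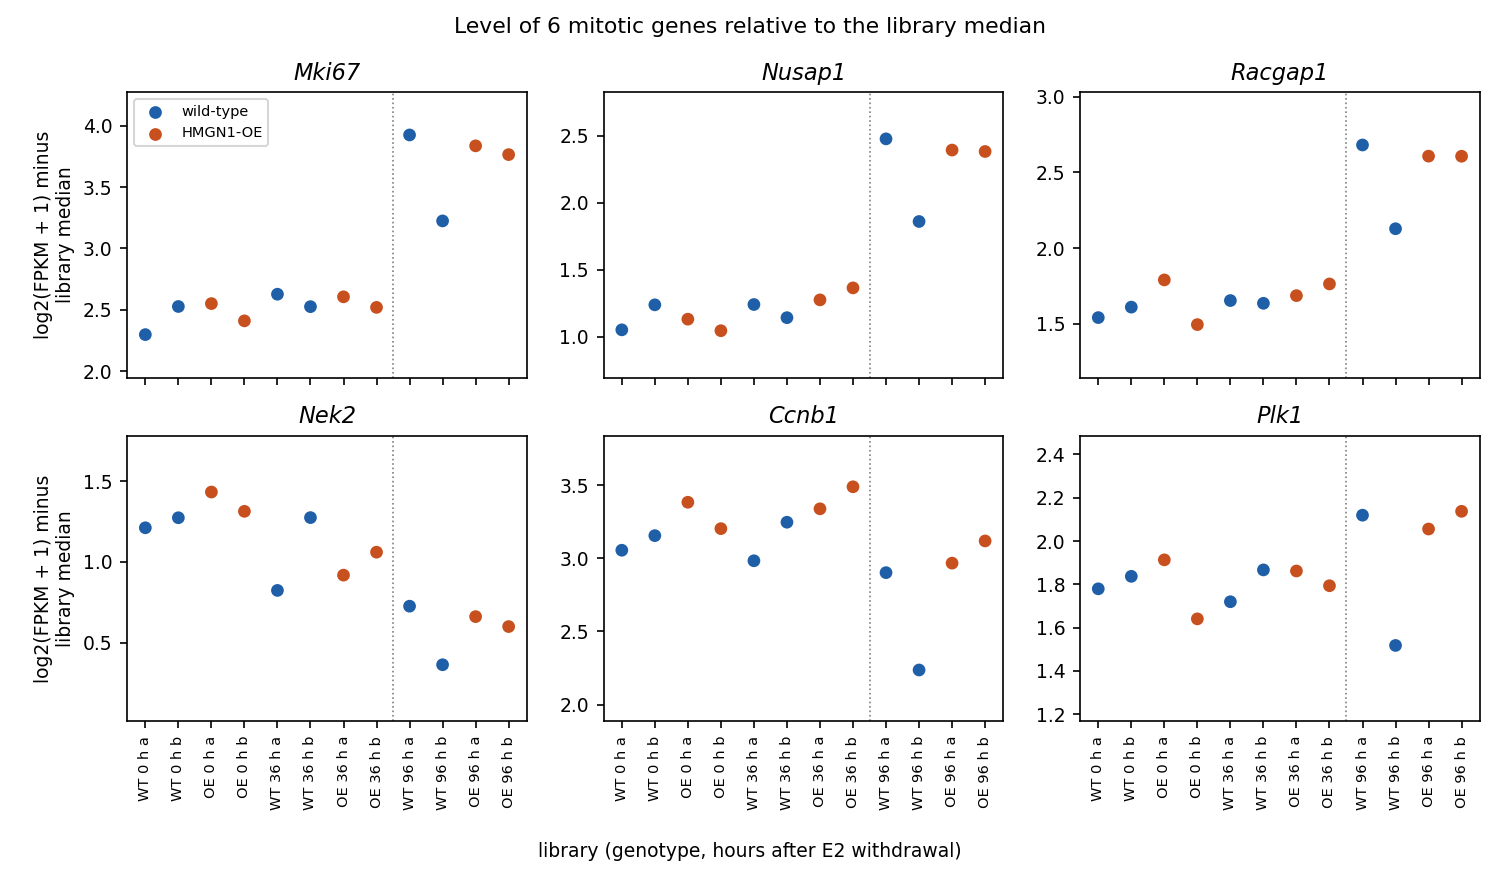
Level of Mki67, Nusap1, Racgap1, Nek2, Ccnb1 and Plk1 in each library as log2(FPKM + 1) minus the median of all tested genes of that library (y axis, its own range in each panel), wild-type in blue and HMGN1-OE (OE) in orange, with the 96 h libraries right of the dotted line. Mki67 lay at 3.22 to 3.92 at 96 h against 2.30 to 2.63 before and Nek2 at 0.36 to 0.73 against 0.82 to 1.43, while Plk1 at 96 h (1.52 to 2.14) spanned its earlier range, with wild-type library b lowest.

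Ratios of mitotic genes inside a library showed the same split. A single factor per library would leave such ratios as they are, but the loess step of the authors depends on the level of a gene and could have altered them. Ccnb1 over Mki67 was 1.28 to 1.97 in the 8 libraries at 0 and 36 h and 0.488 to 0.636 in the 4 libraries at 96 h. Nek2 over Nusap1 was 0.745 to 1.24 and then 0.274 to 0.307. Both cyclins of the B type also separated, with Ccnb1 over Ccnb2 at 1.31 to 1.61 and then at 0.665 to 0.966. By contrast, the ratio of the kinases Aurka and Aurkb was 0.823 to 1.02 at the earlier times and 0.961 to 1.01 at 96 h, within the same range. Wild-type library b at 96 h had ratios like those of the other 96 h libraries (0.491 for Ccnb1 over Mki67 and 0.307 for Nek2 over Nusap1), although its levels stood apart. These pairs were chosen after the values were seen and carry no test.

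At 96 h the mean of each of the 42 genes was higher in HMGN1-OE cells, and none passed the test. The log2 differences ran from 0.36 (Cenpf) to 0.88 (Ccnb1) with standard errors of 0.49 to 0.58, and the median was 0.65 beside 0.36 over all tested genes. By limma 0 of 42 were called (0.669% of tested genes), with a lowest adjusted p of 0.859 and no unadjusted p under 0.05, and 0 of 42 did not overlap (13.2% of tested genes). The difference rested on wild-type library b. Both HMGN1-OE libraries were above it for all 42 genes, by medians of 1.27 and 1.59, whereas against wild-type library a the medians were -0.30, with 0 of 42 genes higher, and 0.04, with 26 of 42 higher. Without wild-type library b the median difference turned to -0.12, with 2 of 42 genes above 0, and without library a it was 1.42. Centred on the library medians, the median difference was 0.25, and library b also stood apart there, with its mitotic genes 1.57 above the library median against 2.14 to 2.19 in the other 3 libraries at 96 h. Marker genes of maturation also had other levels in this library. The 6 progenitor markers summed to 118 FPKM in it against 669.5 to 2302 in the other 3, and the 8 neutrophil markers to 39055 against 67642 to 98087. Of these 8, 5 were lowest in it, such as Camp (2609 against 3818 to 7470) and Itgam (189.7 against 218 to 302), while Mmp8 (60.4 against 12.5 to 33.4) and Mmp9 (21.7 against 1.75 to 9.25) were higher. The summed FPKM of all genes was also lowest in this library, at 228955 against 405490 to 559135 in the other 3, and the marker values are not adjusted for it. S100a8, 1 of the 8 neutrophil markers, made up 12.83% of its summed FPKM, against 13.46% to 15.55% in the other 3. The part of these differences in the result was not tested.

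The change from 36 to 96 h differed between the genotypes by a median of 1.15 log2 units for the 42 genes, beside 0.92 over all tested genes. None of the 42 was called for this difference (0.547% of tested genes), with a lowest adjusted p of 0.355 and 0 of 42 with an unadjusted p under 0.05. The values ran from 0.78 for Cenpf to 1.35 for Spc24, with standard errors of 0.70 to 0.83. Without wild-type library b at 96 h the median was 0.36, beside 0.47 over all tested genes, and without library a it was 1.91. The smaller fall in HMGN1-OE cells, and the smaller number of genes called there, is thus not shown to differ from wild-type cells in any of these genes.

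Of 98 other mitotic genes, 97 were called lower from 36 to 96 h in wild-type cells (86.3% of tested genes) and 55 in HMGN1-OE cells (64.9%), with medians of -2.25 and -1.17. None of them was called between the genotypes at any time. All 8 condensin subunits, which compact mitotic chromosomes, were called lower in wild-type cells with a median of -2.17, and 2 of 8 in HMGN1-OE cells. All 12 genes of cohesin and its regulators, which hold sister chromatids together, were called lower in wild-type cells and 7 of 12 in HMGN1-OE cells (medians -2.25 and -1.20). Of 25 other kinetochore and checkpoint genes, 25 and 17 were called lower (medians -2.48 and -1.33), and of 20 other spindle and cytokinesis genes, 20 and 8 were called lower (-2.08 and -0.94). Of 8 other mitotic kinases and phosphatases, 7 were called lower in wild-type cells and 2 in HMGN1-OE, with medians of -1.88 and -0.85. A last list held 9 transcriptional regulators of the G2 and M programme (Foxm1, Mybl2, Lin9, Lin37, Lin52, Lin54, Rbl1, Rbl2 and E2f4). Of these 9, 9 and 5 were called lower, with medians of -2.01 and -1.11.

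The anaphase-promoting complex, whose activator Cdc20 and enzyme Ube2c are among the 42 genes, had lower medians. The list of 16 genes held its subunits, its activator Fzr1 and its inhibitor Fbxo5 (Emi1). All 16 were called lower in wild-type cells (median -2.83), where 86.3% of tested genes were, and 14 of 16 in HMGN1-OE cells (-1.76), where 64.9% were. Centred on the library medians, 11 of 16 were called lower and 2 higher in wild-type cells, and 9 lower and 2 higher in HMGN1-OE cells. On that scale 33.7% of tested genes were called lower and 38.2% higher in wild-type cells, and 32.3% and 28.6% in HMGN1-OE cells. The 39 DNA replication genes fell furthest, with 39 called lower in wild-type cells (median -3.07) and 38 in HMGN1-OE cells (-1.81). Centred on the library medians, their medians were -0.75 and -0.46, with 30 called lower and 1 higher in wild-type cells and 22 lower in HMGN1-OE cells, where the 42 mitotic genes had medians of 0.22 and 0.33. Relative to the library median, 25 of the 39 replication genes and 1 of the 42 mitotic genes were lower in all 4 libraries at 96 h than in all 8 earlier ones, and 0 of 39 and 9 of 42 were higher, where 31.5% of tested genes were lower and 33.2% higher. Without wild-type library b at 96 h, 25 of 39 and 1 of 42 were lower and 1 of 39 and 30 of 42 higher, where 34.2% of tested genes were lower and 35.2% higher. Of the 98 other mitotic genes, 18 were lower and 23 higher in all 4 libraries at 96 h, and 18 and 52 without that library. These lists were not tested against each other.

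**Figure D4:**
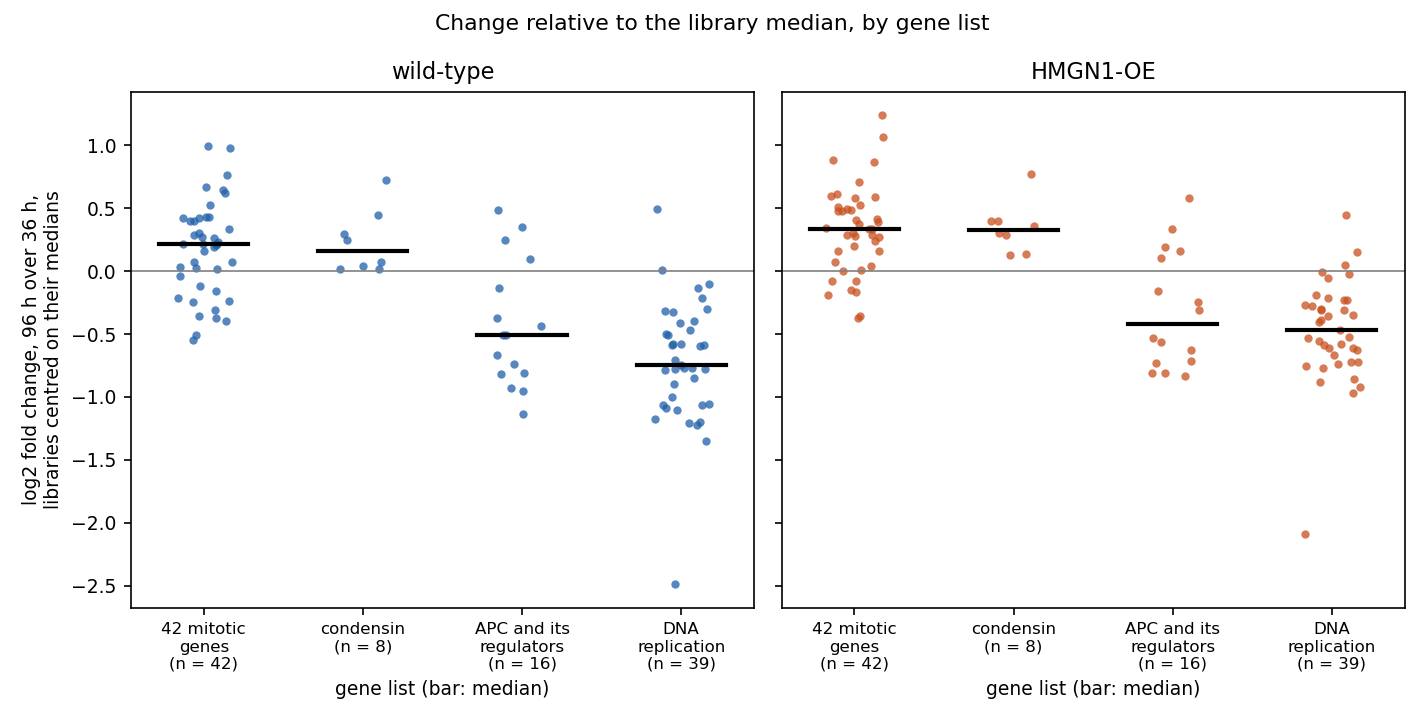
Log2 fold change from 36 to 96 h after subtraction of library medians (y axis) for the genes of 4 lists (points, with the median as a bar) in wild-type (left) and HMGN1-OE cells (right). The medians were 0.22 and 0.33 for the 42 mitotic genes, 0.16 and 0.33 for 8 condensin genes, -0.51 and -0.42 for 16 genes of the anaphase-promoting complex (APC) and its regulators, and -0.75 and -0.46 for 39 DNA replication genes.

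The regulators Cdk1, Foxm1 and Mybl2, which act with these genes, gave unequal changes. Cdk1, the kinase partner of cyclin B, was 75.1 and 162, 147 and 179, and 53.2 and 15.5 FPKM in wild-type libraries, and 128 and 85.6, 119.5 and 118, and 44.0 and 63.6 in HMGN1-OE libraries. It changed from 36 to 96 h by -2.45 in wild-type cells (adjusted p = 2.57e-05) and was at -1.16 in HMGN1-OE cells (adjusted p = 0.0581). Foxm1, a transcription factor of the G2 and M programme, was 17.5 and 33.2, 31.0 and 41.7, and 21.1 and 7.0 FPKM in wild-type libraries, and 27.0 and 17.4, 23.1 and 19.7, and 17.3 and 18.6 in HMGN1-OE libraries. Its change was -1.47 in wild-type cells (adjusted p = 0.00537) and -0.24, not called, in HMGN1-OE cells, so that relative to the library median it rose by 0.85 and 1.11, both called. Mybl2 (B-Myb), the other factor, was 46.1 and 85.3, 97.7 and 112, and 15.8 and 4.57 FPKM in wild-type libraries, and 61.1 and 42, 75.3 and 65.5, and 14.6 and 20.6 in HMGN1-OE libraries. Its fall of 10.9-fold in wild-type cells (-3.45 ± 0.54) and 3.88-fold in HMGN1-OE cells (-1.96 ± 0.54) was deeper than that of each of the 42 mitotic genes, and relative to the library median it fell by 1.12 and 0.61 on the log2 scale, both called. Among the 9 transcriptional regulators, E2f4, an E2F protein of the DREAM complex, fell further still, with changes of -3.78 in wild-type cells and -2.50 in HMGN1-OE cells. Relative to the library median, 5 of the 9 were called higher and 2 lower in wild-type cells (38.2% and 33.7% of tested genes). In HMGN1-OE cells 2 were called higher and 2 lower (28.6% and 32.3% of tested genes). Between the genotypes Cdk1, Foxm1 and Mybl2 were not called at any time.

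The mitotic genes that held a CHR match near the start and those with an entry but without one had close values. From 36 to 96 h the 24 genes with a match had a median change of -2.08 in wild-type cells (-2.70 to -1.56) and the 10 without had -2.11 (-2.87 to -1.33). In HMGN1-OE cells the medians were -1.01 and -0.95. No test was made, and the 24-base stretches printed for Spc25 and Racgap1, among the genes that fell least, and for Cdc20, among those that fell most, hold the same CHR letters.

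Across the 12 libraries, each centred on its median, the 42 genes mostly followed their own mean. The Pearson r of a gene with the mean of the 42 had a median of 0.907 and was highest for Kif11 (0.986), the motor that pushes the spindle poles apart. It exceeded 0.9 for 23 of the 42 and for 25 of the 11474 other tested genes. Nek2 was the lowest of the 42 at -0.384, as its level relative to the library median fell at 96 h. The 5 other genes most like the mean were Cdca3 (0.963), Shcbp1 (0.954), Kif5b (0.950), Ska2 (0.950) and Kif15 (0.948), of which Cdca3, Shcbp1 and Kif15 were among the 98 other mitotic genes. Each member is itself part of the mean, the libraries share their groups and times, and wild-type library b at 96 h contributes to each of these values.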

How the data were processed

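RNA-seq had been done on wild-type and HMGN1-OE ER-HoxB8 progenitors at 0, 36 and 96 h after E2 withdrawal, 12 libraries in 6 groups of 2. The authors extracted RNA from a fixed number of cells, added ERCC RNAs, prepared TruSeq libraries, aligned the reads, computed a value per gene and normalized the matrix by loess on the ERCC RNAs. The deposited table holds these normalized FPKM for 23309 genes and 92 ERCC RNAs. The study's methods name Bowtie and RPKM, while the submitters' processing notes list HISAT, Cufflinks 2.0.0 and mm9, so which aligner made these values is uncertain. Loess fits a curve over the level of expression, so the step can move a whole library and can also move genes of unequal level by unequal amounts, and per-cell differences carry its error. The values hold no read counts, so the depth is unknown and no counting error is given.

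From the FPKM, log2(FPKM + 1) was computed, and 11516 genes (1 FPKM or more in 2 or more of 12 libraries) were fitted with limma 3.58.1 (R 4.3.3; lmFit, eBayes with trend) with 6 group means. Tests were two-sided, p-values were adjusted by Benjamini-Hochberg over all tested genes, and calls were made at 0.05. The prior degrees of freedom were infinite, so a gene's standard error follows its expression level and not the spread of its own libraries. Fold changes are on the FPKM + 1 scale and understate changes of low genes. Comparisons were HMGN1-OE against wild-type at each time, 0 to 36 and 36 to 96 h in each genotype, and the difference of these changes between genotypes. The fit was first tested on simulated data, in which 200 genes were changed between the genotypes at 96 h. It called 13% of the genes changed by 1 log2 unit and 73% of those changed by 2, and 1.1% of its calls were false.

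The members, the 98 other mitotic genes, the 39 replication genes, the cell type markers and the tests were chosen with earlier results of these data known. The sums of 2 marker lists are not reported here. All 42 members were accounted for. Values in every library were given for the 2 members of each role group with the highest mean level, and of the called members in a comparison, where over 10, the largest and smallest fold change of each role group were named. Nek2, Kif23, Plk1, E2f4, S100a9, Camp, Itgam, Mmp8, Mmp9, Spc24 over Spc25 and the other ratios lie outside this rule and were named after their values were seen, as were other members given by range. Cdk1, Foxm1 and Mybl2 were named from the 98 genes, and the 5 genes most like the members by Pearson r. Promoters were those of RefSeq on GRCm38.p6, a different build from mm9, and 8 members had no entry there. Summaries and figures were made in Python 3.11.15 with pandas 2.3.3 and matplotlib 3.10.9.

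The alternatives were a pseudocount of 0.1, no filter, a mean of at least 5 FPKM, library-median centring, quantile normalization, limma without the trend, no moderation, fits of the compared groups alone, and each library left out in turn. The robust option of limma and the count relative to the library median without wild-type library b at 96 h were added after the values were seen.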

Additional observations from a re-analysis of the deposited data

How the results depend on the processing

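Under no alternative run, with each library left out in turn included, did limma call a member between the genotypes at any time, for either interaction or from 0 to 36 h. In wild-type cells the count of 42 members lower from 36 to 96 h became 12 with each library centred on its median (10 higher, 2 lower) and 20 with quantile normalization (19 higher, 1 lower, beside 31.9% and 38.3% of tested genes), since both remove the fall shared by most genes. Leaving out a library gave 31 (without wild-type library b at 96 h) to 42. In HMGN1-OE cells the count of 14 became 15 with centring (15 higher, 0 lower) and 26 with quantile normalization (26 higher, 0 lower, beside 28.7% and 36% of tested genes), 1 with no filter (25.5% of 23309 genes lower), 1 with no moderation (55.1% lower) and 38 when the compared groups were fitted alone (83% lower). Leaving out a library gave 0 to 25. The cause of the other moves was not tested.

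The sign of most members turned with centring and quantile normalization. Of the 42 changes, all below 0 before, 30 and 32 were above 0 in wild-type cells (6220 and 5294 of 11516 tested genes) and 35 and 39 in HMGN1-OE cells (5835 and 5240). Of the named members in wild-type cells, the log2 changes were 0.40 and 0.70 for Ccnb2, 0.43 and 0.74 for Ube2c, 0.67 and 0.88 for Spc25, 0.43 and 0.67 for Incenp, 0.98 and 1.20 for Nusap1, 0.76 and 1.003 for Racgap1, 0.20 and 0.51 for Top2a, and 0.998 and 1.30 for Mki67, and with quantile normalization alone 0.086 for Aurkb. In HMGN1-OE cells they were 0.24 and 0.27 for Cdc25c, 0.0079 and 0.10 for Spc24, 0.070 and 0.14 for Cenpf, 0.16 and 0.31 for Aurkb, 0.040 and 0.18 for Hmmr, and 0.0019 and 0.095 for Kif20b, and with quantile normalization alone 0.027 for Ttk and 0.015 for Ect2. No paired analysis was possible because the columns of the table carry no replicate number of the sample names. Standard errors of 0.49 to 0.58 log2 units, from 2 libraries a group, limit which genotype differences could be called, and the read depth is unknown.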
